A study of Mus musculus with 4 samples.

Results

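The solute carriers are a large group of membrane proteins that move sugars, amino acids, ions, metals, vitamins and nucleotides across the plasma membrane and the membranes of organelles. The 159 genes described here were chosen by name and level. Their symbols begin with Slc and a digit, and each had at least 5 CPM (counts scaled to the plain total of the library) in at least 1 of 4 libraries. A set of 11 amino acid and glucose carriers was left out by name, of which 10 reached that level. The table of named genes held 237 solute carrier symbols in all, and 68 of them stayed under 5 CPM in every library. All 159 members passed the filter of 1 CPM in at least 1 library that defined the 12348 tested genes of the series. That filter and all CPM values and ratios of genes below use library totals adjusted by TMM factors, while the 5 CPM rule and the floor of 3 counts use plain totals.

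The libraries came from MLE-12, an established mouse lung epithelial line made from a lung tumour of mice that carried a viral oncogene under a surfactant promoter. Cells were labelled WT or Lingo1 KO, and RNA was taken from unscratched cells or 24 hours after a scratch, with 1 library in each of the 4 conditions: WT unscratched, WT scratched, Lingo1 KO unscratched and Lingo1 KO scratched. The labels name no clone, guide or number of cultures, and no condition had a replicate. Lingo1 mRNA stood at 46.4 and 42.9 CPM in the WT and at 41.2 and 41.4 CPM in the KO libraries, unscratched and scratched, so the genotypes are called KO-labelled below.

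Carriers at the plasma membrane mostly use gradients of sodium, protons or the substrate itself, and many sodium-driven ones rest on the gradient kept by the sodium pump. Carriers of the SLC25 family sit in the inner mitochondrial membrane and exchange nucleotides, phosphate, amino acids and carboxylates with the cytosol. SLC39 (ZIP) proteins raise and SLC30 (ZnT) proteins lower zinc in the cytosol, and SLC35 proteins carry nucleotide sugars into the Golgi and endoplasmic reticulum. In the alveolus, ion carriers help set the volume and pH of the lining fluid, and amino acid, choline and lipid carriers feed surfactant synthesis.

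Markers of alveolar and other cell types were read in the 4 libraries. Of 10 alveolar type 2 markers 6 were tested, and 3 rose and none fell in the KO-labelled libraries by the test described below. Over all tested genes 13.8% rose and 12.2% fell, and the list holds too few genes to read a share from. The surfactant gene Sftpb was at 25.4 and 22.9 CPM in WT and 107 and 93.5 CPM in KO-labelled cells, 4.19-fold and 4.09-fold higher. Sftpc was 3.62-fold and 3.09-fold higher, from 5.68 and 6.42 to 20.6 and 19.8 CPM, and Etv5 was the third, 1.45-fold and 1.22-fold higher. Abca3, Napsa and Nkx2-1 were tested and did not pass. Unscratched and scratched, Abca3 was at 1.06 and 1.06 times WT, Napsa at 0.870 and 0.615 and Nkx2-1 at 0.840 and 1.03. The surfactant genes Sftpa1 and Sftpd were at 0 in every library. The phosphate carrier Slc34a2, a classical marker of these cells, had at most 3 counts in a library, which is the floor used here (0.0621 to 0.112 CPM, depending on the library). The list summed to 361 to 411 CPM in the WT and 466 to 507 CPM in the KO-labelled libraries. The 6 alveolar type 1 markers summed to 2639 to 2969 CPM, most of it Cav1 at 1756 to 2013 CPM. By the same test Hopx rose and Pdpn fell among them. The 4 leukocyte markers summed to at most 2.11 CPM with Ptprc at 0, and the 3 endothelial markers to at most 0.609 CPM with Cdh5 at 0. The 4 fibroblast markers summed to 2660 to 2909 CPM, most of it decorin (Dcn), which was at 0.952 and 0.880 times WT. Col1a1 was 9.26-fold and 10.7-fold higher in the KO-labelled libraries. Pdgfra, at 1.15 to 2.30 CPM, was 1.78-fold and 1.69-fold higher, and Col1a2 had at most 1 count in a library. The part of these marker differences in the carrier differences below was not tested.

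Levels between genes were compared as RPKM, the authors' values per length and library size. Mean RPKM over the 4 libraries ran from 0.717 to 189 with a median of 9.20. Only 3 genes had a mean of 100 or more, and 45 had a mean under 5. Slc25a4, the adenine nucleotide translocase that exchanges ADP and ATP across the inner mitochondrial membrane, was at 181, 186, 188 and 200 RPKM in WT unscratched, WT scratched, KO-labelled unscratched and KO-labelled scratched cells, and all lists of 4 RPKM values below keep that order. Slc6a6, the taurine carrier, was at 166, 167, 183 and 189 RPKM. Slc25a39, the mitochondrial glutathione carrier, was at 151, 155, 169 and 164 RPKM. Each of these 3 leading genes differed by less than 1.2-fold in each of the 4 comparisons.

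The 35 mitochondrial carriers held the largest share of the members' summed RPKM, 30.3%, 31.0%, 32.4% and 32.6% in the 4 libraries. The 19 remaining amino acid and amine carriers held 14.4% of it in WT unscratched cells, the 21 nucleotide sugar and acetyl-CoA carriers 10.8%, the 24 metal carriers 9.76% and the 17 carriers of bicarbonate, sodium, chloride, calcium and protons 9.64%. The other carrier classes held under 5% each in that library. A further 5 members by name are not carriers: the scaffold proteins Slc9a3r1 and Slc9a3r2 (NHERF proteins), Slc4a1ap, Slc7a6os and the pseudogene Slc2a4rg-ps.

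**Figure D1:**
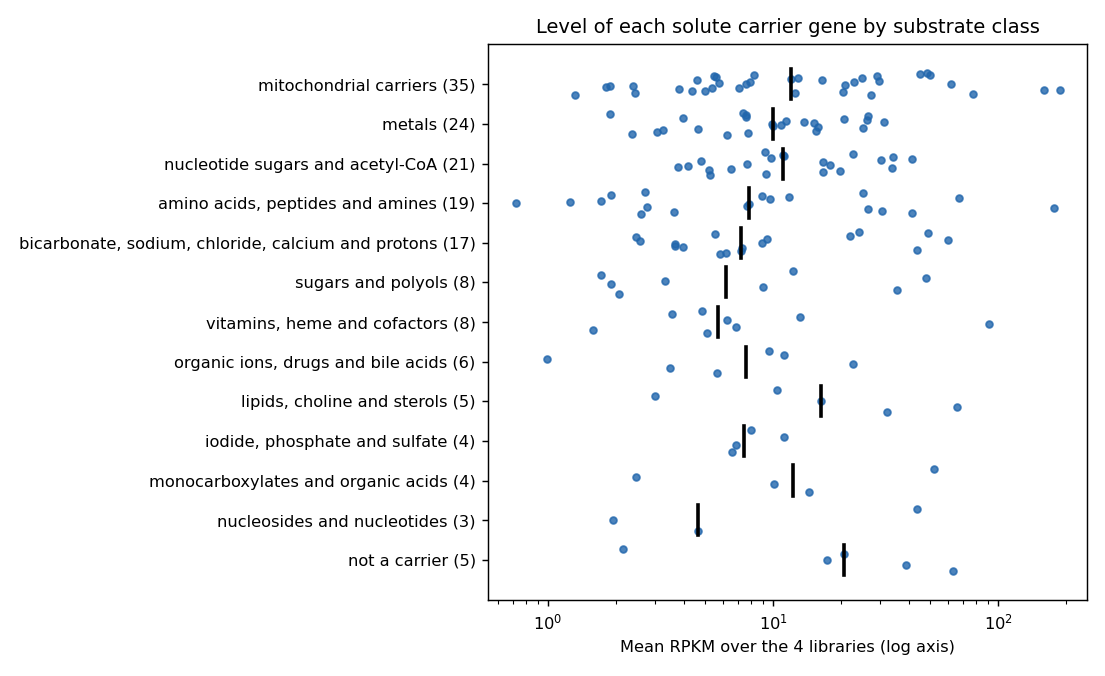
Mean RPKM over the 4 libraries (log axis) of each of the 159 genes, 1 point per gene, in rows by substrate class with the number of genes, and a black bar at each class median. Levels spread from 0.717 to 189 RPKM, and Slc25a4, Slc6a6 and Slc25a39 stand above 100 RPKM.

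Most solute carrier genes differed little between the genotypes, and a minority differed modestly. Since no condition had a replicate, the ratio of CPM of a gene between 2 libraries is given with an exact 95% Clopper-Pearson interval that covers counting error only. An additive model of genotype and scratch over the 4 libraries (edgeR quasi-likelihood test, Benjamini-Hochberg adjustment over the 12348 genes, 0.05) is given beside it. Its p-values rest on 1 library per condition and include no spread between cultures. "Rose" and "fell" are used for genes that passed it, for KO-labelled against WT unless a scratch is named, and "by" gives the fitted log2 difference with its SE. The SE was worked back from the test, as the size of that difference over the square root of its F value.

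By that test 27 members rose and 16 fell in the KO-labelled libraries, and 116 did not pass. Slc43a2 and Slc7a7, 2 of the 27, became members only through the KO-labelled libraries. The counts are 17.0% and 10.1% of the members, against 13.8% and 12.2% of all tested genes and 14.5% and 13.2% of the 10488 genes with at least 5 CPM in a library, so the shares were near the background. Of the 43 that passed, all lay on the same side of 0 in both comparisons, and in 40 both counting intervals excluded 1. The test was fitted to both comparisons and took its spread in part from their disagreement. This agreement was thus in part fixed by passing, and it supports nothing. The median fold of the 43 was 1.23, against 1.22 over all tested genes that passed. DESeq2 called 11 of these 43 members, all in the same direction, and no other member: Slc7a2, Slc43a2, Slc9a8, Slc12a2, Slc39a10, Slc25a1, Slc25a5 and Slc25a30 higher, and 3 lower, among them Slc15a4 and Slc66a1. The members that did not pass had genotype log2 values from -0.28 to 0.32.

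The pair of KO-labelled against WT comparisons share no library. The median log2 difference of the members was -0.00 unscratched and 0.03 scratched, against 0.01 and 0.00 over all tested genes. The sign was the same in both comparisons for 128 members (80.5%), 67 higher and 61 lower, against 72.8% of all tested genes and 73.8% of those with at least 5 CPM. In the unscratched comparison 125 members lay within 1.2-fold (78.6%, against 72.7% of tested genes and 78.4% of those with at least 5 CPM), and in the scratched comparison 135 did (84.9%, against 78.6% and 84.1%). Only 1 member was at least 2-fold higher in either comparison, against 1.36% of tested genes unscratched and 1.47% scratched, or 0.563% and 0.686% of genes with at least 5 CPM. No member was at least 2-fold lower, against 0.883% and 0.429% of tested genes, or 0.257% and 0.124% of genes with at least 5 CPM.

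**Figure D2:**
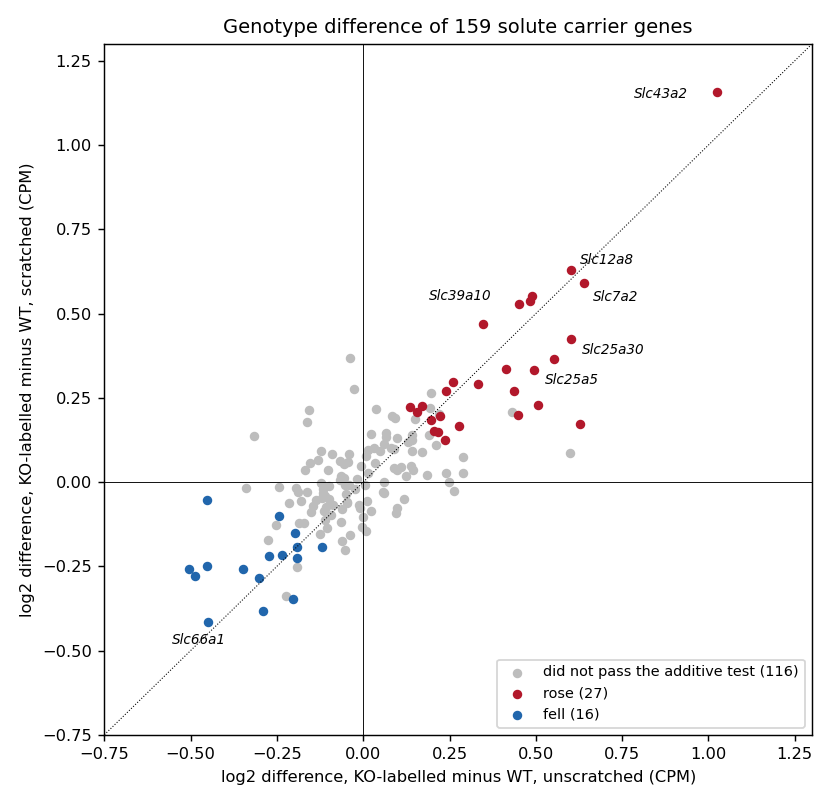
Log2 difference in CPM between KO-labelled and WT cells for the 159 genes, unscratched on the x axis and scratched on the y axis, with equality dotted. The 27 genes that rose are red, the 16 that fell blue and the 116 that did not pass grey, and Slc43a2 stands apart above 1 on both axes.

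Among carriers of amino acids, peptides and amines 4 genes rose and 3 fell of 19 (13.8% and 12.2% of tested genes), and the class held the largest genotype difference of all members. Slc43a2 encodes LAT4, a facilitator of large neutral amino acids such as leucine and phenylalanine. It was at 0.493, 0.421, 1.01 and 0.946 RPKM, from 95, 84, 213 and 325 counts. Both KO-labelled libraries were above both WT libraries, by 2.05-fold unscratched (1.61 to 2.64) and 2.25-fold scratched (1.77 to 2.90), the only member past 2-fold. It had the lowest mean RPKM of the 159 genes, and it passed the 5 CPM threshold through the KO-labelled libraries alone (3.01 to 7.21 CPM over the 4 libraries by plain totals). A difference in this direction was thus in part fixed by the choice of members, and its call supports nothing. The gene lies on chromosome 11 from 75531694 to 75577575 on the plus strand (mm10). The RefSeq bases before its first start (GRCm38.p6) are shown because it is the member with the largest fold, 5′ to 3′ with no capitals because no match to the metal response letters given below was found in them:
Slc43a2, chr11:75531444-75531693, plus strand: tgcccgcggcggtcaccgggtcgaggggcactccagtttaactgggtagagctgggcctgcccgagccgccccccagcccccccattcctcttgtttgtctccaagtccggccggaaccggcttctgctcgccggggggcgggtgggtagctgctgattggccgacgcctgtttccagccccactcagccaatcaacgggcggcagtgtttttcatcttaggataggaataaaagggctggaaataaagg

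Slc7a2, the cationic amino acid carrier CAT-2 that brings arginine and lysine into the cell, was at 25.5, 22.5, 39.7 and 33.8 RPKM. Its levels in KO-labelled cells exceeded those in WT cells 1.56-fold unscratched (1.51 to 1.61) and 1.51-fold scratched (1.46 to 1.56), and it rose by log2 0.61 ± 0.06 (adjusted p = 5.50e-09). After the scratch it was lower in both genotypes, at 0.887 and 0.857 times the unscratched level in WT and KO-labelled cells, without passing the test for the scratch (adjusted p = 0.0559). Slc7a7, the y+LAT1 subunit that exports cationic amino acids together with Slc3a2, was at 2.15, 2.11, 3.0 and 3.06 RPKM. It too reached 5 CPM through the KO-labelled libraries alone (4.80 to 6.93 CPM by plain totals), so its direction was in part fixed by the choice of members, and its values are a description. Its exons overlap those of Oxa1l on the opposite strand, so its count is uncertain. Slc7a4, a relative of the cationic carriers, rose by 0.31 ± 0.10.

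The 3 genes that fell in this class act at internal membranes. Slc66a1 (PQLC2) exports cationic amino acids from lysosomes and was at 8.92, 9.12, 6.49 and 6.81 RPKM, 0.731 times WT unscratched (0.651 to 0.821) and 0.749 times scratched (0.678 to 0.828). Slc15a4, a carrier of histidine and peptides in endosomes and lysosomes, was at 27.8, 27.7, 22.5 and 22.7 RPKM. The ratio of scratched to unscratched cells was 1.03 in WT and 1.05 in KO-labelled cells for Slc66a1, and within 1.2-fold for Slc15a4 as well, while the genotypes did not overlap for either gene. Slc6a17, a carrier of neutral amino acids in vesicles, fell by 0.38 ± 0.09, from 3.41 and 2.82 to 2.39 and 2.35 RPKM. Among the 12 others, Slc38a10 was at 65.8 to 68.0 RPKM, Slc7a6, the y+LAT2 subunit, at 38.7 to 44.6 RPKM and the creatine carrier Slc6a8 at 25.8 to 27.3 RPKM. Slc6a6 was 1.11-fold and 1.14-fold higher in KO-labelled cells and lay just outside the threshold (adjusted p = 0.0507).

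Carriers of sodium, chloride, bicarbonate and protons passed in both directions, 5 higher and 2 lower of 17, beside 13.8% and 12.2% of tested genes. Their median genotype log2 was -0.07, against 0.00 over tested genes. Slc4a2, the anion exchanger AE2 that trades bicarbonate for chloride, fell by 0.17 ± 0.06, from 65.5 and 61.8 to 55 and 57.5 RPKM. The exons of Slc4a2 overlap Fastk on the opposite strand.

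The rising members of this class included a proton exchanger and a bicarbonate importer. Slc9a8 (NHE8), a sodium-proton exchanger of the Golgi and apical membrane, was at 5.08, 4.96, 6.44 and 6.84 RPKM and rose by 0.41 ± 0.08. Slc4a7 (NBCn1), which brings sodium and bicarbonate into the cell, was at 2.84, 3.59, 4.02 and 4.19 RPKM and rose by 0.36 ± 0.08. Its genotype ratio was 1.42 unscratched (1.28 to 1.57) and 1.17 scratched (1.08 to 1.28), and the WT unscratched library stood lowest of the 4. In the cation-chloride family, Slc12a2 (NKCC1), which loads cells with chloride, rose by 0.28 ± 0.06, from 22.7 and 21.2 to 27.0 and 25.9 RPKM, and Slc12a7 (KCC4), which lets potassium and chloride out, rose by 0.19 ± 0.06. Slc12a8, a distant member of that family, rose most, by 0.62 ± 0.11, from 1.98 and 1.90 to 3.0 and 2.94 RPKM. Slc12a4 (KCC1) was the most abundant of the family at 46.9 to 52.2 RPKM and did not pass, nor did Slc12a9.

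**Figure D3:**
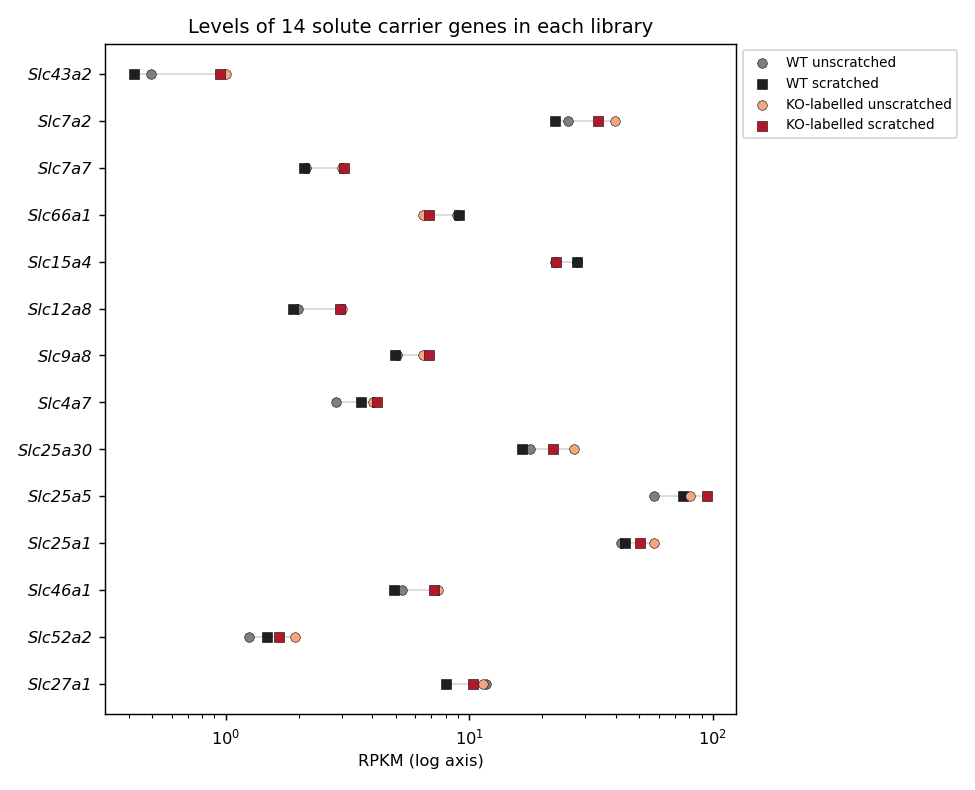
RPKM (log axis) of 14 named carrier genes in each of the 4 libraries, grey and black for WT unscratched and scratched, light and dark red for KO-labelled unscratched and scratched, 1 point per library. Both red points lie to the right of both WT points for genes that include Slc43a2, Slc7a2, Slc7a7, Slc12a8, Slc9a8, Slc4a7, Slc25a30, Slc25a5, Slc25a1 and Slc46a1. For Slc66a1 and Slc15a4 they lie to the left. Slc43a2 and Slc7a7 became members only through the KO-labelled libraries.

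Of the 24 metal carriers, 3 rose and 6 fell in the KO-labelled libraries, against 13.8% and 12.2% of tested genes. The signs of the 2 comparisons matched for 22, or 91.7%, against 72.8% of tested genes. The median genotype log2 of the class was 0.01, against 0.00. Slc39a10 encodes ZIP10, a zinc importer of the plasma membrane. It was at 11.4, 11.5, 15.6 and 16.5 RPKM, 1.37-fold higher in KO-labelled cells unscratched (1.29 to 1.46) and 1.44-fold scratched (1.36 to 1.53), and rose by 0.49 ± 0.05 (adjusted p = 3.42e-08). Its ratio of scratched to unscratched cells was 1.01 in WT and 1.06 in KO-labelled cells. Slc11a2 (DMT1), the importer of ferrous iron, rose by 0.35 ± 0.07, from 6.24 and 6.75 to 8.42 and 8.12 RPKM. Slc30a4 (ZnT4), which moves zinc into vesicles, rose by 0.26 ± 0.06, from 6.95 and 6.93 to 8.18 and 8.33 RPKM.

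The metal carriers that fell handle copper, zinc, iron and magnesium. The high-affinity copper importer Slc31a1 (CTR1) fell by 0.16 ± 0.06, and its neighbour on chromosome 4 and relative Slc31a2 (CTR2) fell by 0.28 ± 0.09, from 12.6 and 12.4 to 11 and 9.68 RPKM. The zinc importer Slc39a6 (ZIP6) fell by 0.21 ± 0.06, and its relative Slc39a3 (ZIP3) fell by 0.19 ± 0.07. Slc40a1 encodes ferroportin, the iron exporter of vertebrate cells, and fell by 0.30 ± 0.10, from 3.54 and 3.24 to 2.77 and 2.69 RPKM. The magnesium carrier Slc41a2 fell by 0.38 ± 0.10. By family, 1 of 11 ZIP genes rose and 2 fell, and 1 of 6 ZnT genes rose and none fell. Over all tested genes 13.8% rose and 12.2% fell, and these families hold too few genes to read a share from.

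**Figure D4:**
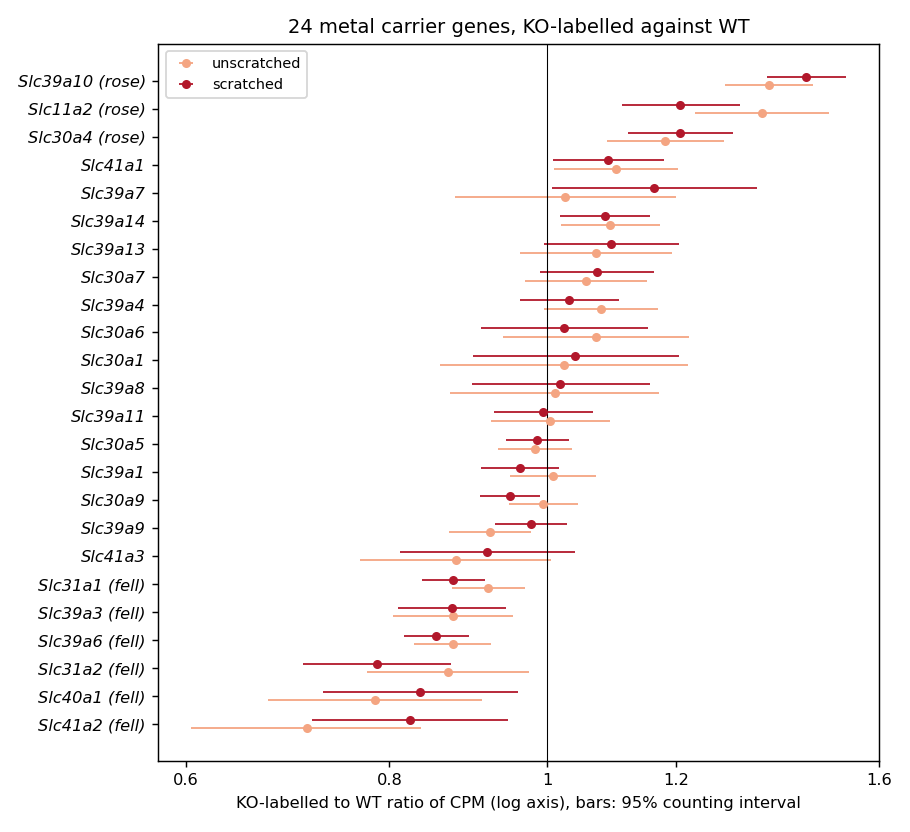
KO-labelled to WT ratio of CPM (log axis) for the 24 metal carriers, light red for unscratched and dark red for scratched cells, with bars for the 95% counting interval, ordered by genotype log2. Slc39a10 lies highest at 1.37 and 1.44, and the lowest points are Slc41a2 unscratched at 0.712 and Slc31a2 scratched at 0.786.

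Among 13 metal handling genes in the list of partners, 4 fell and none rose in the KO-labelled libraries, against 12.2% and 13.8% of tested genes, and 9 did not pass. The zinc-sensing transcription factor Mtf1 fell by 0.23 ± 0.06, from 45.9 and 45.9 to 38.6 and 39.6 CPM. Its classical targets, the metallothioneins, bind zinc and copper: Mt2 fell by 0.63 ± 0.06, and Mt1 fell by 0.70 ± 0.06, from 404 and 382 to 223 and 263 CPM. The zinc exporter Slc30a1 (ZnT1), another known target, was at 1.74, 1.99, 1.77 and 2.06 RPKM, 1.02-fold and 1.04-fold of WT with intervals that include 1. The ferritin light chain Ftl1 fell by 0.18 ± 0.06. The transferrin receptor Tfrc, the ferritin heavy chain Fth1 and heme oxygenase Hmox1 were among the 9 that did not pass.

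Promoter windows of zinc carriers are shown because the metal response element is the letters that Mtf1 binds. RefSeq promoter windows (GRCm38.p6, 250 bases before to 50 after a start) were matched for 124 of the 159 members, with 172 windows. The element was searched as TGCACNC or TGCGCNC on both strands, and capitals mark each match in the bases before the annotated gene:
Slc30a1, chr1:191906531-191906766, plus strand: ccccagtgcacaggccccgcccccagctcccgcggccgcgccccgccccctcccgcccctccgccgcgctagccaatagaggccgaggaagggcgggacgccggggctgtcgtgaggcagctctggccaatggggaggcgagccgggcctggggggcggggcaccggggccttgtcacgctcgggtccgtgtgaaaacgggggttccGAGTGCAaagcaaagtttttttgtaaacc
Slc30a4, chr2:122702664-122702913, minus strand: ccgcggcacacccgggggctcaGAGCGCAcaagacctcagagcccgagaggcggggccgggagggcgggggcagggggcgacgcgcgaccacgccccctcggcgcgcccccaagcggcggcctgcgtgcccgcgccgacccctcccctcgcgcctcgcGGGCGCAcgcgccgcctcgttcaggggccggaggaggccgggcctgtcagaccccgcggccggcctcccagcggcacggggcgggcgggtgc
Slc39a3, chr10:81037427-81037565, minus strand: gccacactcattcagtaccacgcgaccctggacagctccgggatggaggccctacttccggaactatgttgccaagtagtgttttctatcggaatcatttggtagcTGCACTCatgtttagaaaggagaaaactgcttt
Slc30a1 did not pass the test, Slc30a4 rose and Slc39a3 fell, so the shown genes that passed differed in direction. A match was in 7 of 32 windows of members that rose (21.9%) and in 6 of 12 windows of members that fell (50%). These are few windows, some of them of the same gene, and a link to direction was not tested. Of 22 windows of 19 metal carriers, 12 held a match (54.5%), against 36.6% of members' windows and 25.7% of all 32851 windows. Neither window of Slc39a10 held one.

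Other letters were searched the same way in members' windows and in all windows, on both strands. The E-box CACGTG was in 16.3% against 7.15%, and the hypoxia letters ACGTG, which every E-box match contains, in 30.2% against 19.6%. The antioxidant letters TGACNNNGC were in 21.5% against 12.4%. The ATF4 composite letters TGATGNAAN were in 2.33% against 3.95%. In the 22 windows of metal carriers the E-box was in 22.7%, the hypoxia letters in 50%, the antioxidant letters in 31.8% and the ATF4 letters in 0%. A share above that of all windows was thus not particular to the metal response letters in these carriers. These are letter matches without a test, and base composition was not matched.

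Mitochondrial carriers rose in 7 of 35 cases and fell in 2, beside 13.8% and 12.2% of tested genes, and their median genotype log2 was 0.08, against 0.00. Slc25a5, the adenine nucleotide translocase of dividing cells, was at 57.5, 75.7, 80.8 and 95 RPKM. It was the only member that rose with both factors: by 0.41 ± 0.06 for genotype (adjusted p = 4.35e-06) and by 0.32 ± 0.06 for the scratch (adjusted p = 0.0021). The WT unscratched library was lowest and the KO-labelled scratched library highest. Its relative Slc25a4 did not pass either test, at 0.09 ± 0.06 and 0.08 ± 0.06. The translocases are similar in sequence and have processed copies in the genome. How reads were divided among these was not tested, so it is uncertain.

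Carriers of phosphate, citrate and aspartate rose by smaller amounts. Slc25a1, which exports citrate for fatty acid and sterol synthesis, was at 42.2, 43.8, 57.3 and 50.1 RPKM, 1.36-fold higher in KO-labelled cells unscratched (1.29 to 1.45) and 1.15-fold scratched (1.09 to 1.21). The phosphate carrier Slc25a3 rose by 0.20 ± 0.06, from 57.9 and 57.0 to 65.0 and 66.4 RPKM, and the aspartate-glutamate carrier Slc25a13 by 0.22 ± 0.05. Slc25a30, a relative of the uncoupling proteins found in kidney mitochondria, was at 17.8, 16.5, 27.0 and 22.1 RPKM. It rose by 0.51 ± 0.05 with genotype (adjusted p = 3.71e-08) and fell by 0.20 ± 0.05 with the scratch (adjusted p = 0.0411). The low members Slc25a35 and Slc25a45, with poorly known substrates, rose by 0.46 ± 0.12 and 0.37 ± 0.12, with under 3 RPKM in every library.

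The mitochondrial carriers that fell were a NAD carrier and an iron carrier. The NAD carrier Slc25a51 fell by 0.17 ± 0.06, and mitoferrin 1 (Slc25a37), which brings iron to heme synthesis, fell by 0.25 ± 0.08. Mitoferrin 1 was at 6.33, 5.31, 4.60 and 5.10 RPKM, 0.730 times WT unscratched (0.664 to 0.801) but 0.964 times scratched (0.886 to 1.05), an interval that includes 1. Its relative Slc25a28 did not pass, at -0.08 ± 0.08. The summed RPKM of the 35 carriers was 881 and 915 in WT and 972 and 989 in KO-labelled cells, 1.10-fold and 1.08-fold higher. Over all 159 members the same ratios were 1.03 and 1.03. The 17 carriers of nucleotides, phosphate and cofactors made up most of the sum, at 610, 638, 665 and 691 RPKM.

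Vitamin carriers rose in 3 of 8 cases and none fell, beside 13.8% and 12.2% of tested genes, which is too few genes to read a share from. Slc46a1, the proton-coupled folate carrier, was at 5.32, 4.91, 7.46 and 7.19 RPKM, 1.41-fold (1.21 to 1.64) and 1.47-fold (1.28 to 1.70) higher in KO-labelled cells, with no overlap between the genotypes (0.52 ± 0.10, adjusted p = 0.000204). The reduced folate carrier Slc19a1 was at 4.32, 4.68, 4.93 and 5.43 RPKM and did not pass. Slc52a2, which imports riboflavin, rose by 0.39 ± 0.12. Its ratio was 1.55 unscratched (1.28 to 1.88) and 1.13 scratched, where the interval of 0.955 to 1.33 includes 1. The ascorbate carrier Slc23a2 rose by 0.18 ± 0.05, and the heme carrier Slc48a1, the most abundant of this class, was at 87.7 to 95.9 RPKM and did not pass.

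Sugar, sulfate, phosphate and nucleoside carriers gave no genotype call in either direction, beside 13.8% higher and 12.2% lower of tested genes. These classes hold 8, 4 and 3 genes, too few to read a share from. None of the 8 sugar and polyol carriers passed, led by Slc37a3 at 46.3 to 49.3 RPKM and the sugar exporter Slc50a1 at 34.5 to 36.6 RPKM. The glucose carrier Slc2a8 was at 11.4 to 13.0 RPKM, while Slc2a1, the main glucose importer and not a member, was 1.55-fold and 1.52-fold higher in KO-labelled cells. The phosphate importers Slc20a1 and Slc20a2 were at 7.46 to 8.42 and 9.94 to 12.2 RPKM. The nucleoside carrier Slc29a1 (ENT1) was at 41.2 to 46.3 RPKM. The counting intervals of the genotype ratios of Slc29a1 reached 1.12 at most, and those of Slc37a3 1.08.

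Genes also passed in the remaining classes, beside 13.8% higher and 12.2% lower of tested genes. The classes of 4 monocarboxylate, 5 lipid and 6 organic ion carriers, and the 5 genes that are not carriers, are too small to read a share from. Of the monocarboxylate carriers, Slc16a3 (MCT4), which exports lactate, rose by 0.18 ± 0.06, from 9.36 and 9.56 to 10.4 and 11 RPKM, while Slc16a1 (MCT1), at 51.1, 57.3, 47.2 and 52.8 RPKM, did not pass for either factor. The choline carrier Slc44a2 rose by 0.18 ± 0.06, and Slc44a1, at 60.1 to 70.3 RPKM, did not pass. Of 21 nucleotide sugar and acetyl-CoA carriers, Slc35e1 rose by 0.18 ± 0.06, Slc35a5 fell by 0.23 ± 0.06 and Slc35e2 fell by 0.25 ± 0.06. Their substrates are poorly known, and Slc35e2 overlaps Gm16023 on the opposite strand. The CMP-sialic acid carrier Slc35a1, the UDP-galactose carrier Slc35a2 and the GDP-fucose carrier Slc35c1 did not pass. Of 6 organic ion carriers, Slc10a7 rose by 0.18 ± 0.06 and Slc22a15 fell by 0.34 ± 0.12. The scaffold Slc9a3r1, which holds Slc9a3 at the apical membrane, rose by 0.21 ± 0.05.

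Partners of the carriers also passed in both directions. Of 61 listed partners 47 were tested, and 9 rose and 9 fell in the KO-labelled libraries, against 13.8% and 12.2% of all tested genes. In the sodium pump list the beta subunit Atp1b1 rose by 0.38 ± 0.08, from 27.3 and 26.0 to 34.2 and 35.1 CPM. The regulator Fxyd5 was at 0.406 and 0.394 CPM in WT, with 11 counts in each library, and at 1.32 and 1.15 CPM in KO-labelled cells. It reached the filter of 1 CPM through the KO-labelled libraries alone, so its direction was in part fixed by that filter. Its fitted difference (1.61 ± 0.38) and its place among the 9 that rose are a description. Fxyd3, another regulator of the pump, fell by 0.43 ± 0.11, from 9.30 and 7.67 to 6.59 and 5.91 CPM. Basigin (Bsg), the chaperone of MCT1 and MCT4, rose by 0.16 ± 0.06, and lactate dehydrogenase A (Ldha) by 0.50 ± 0.06. Stk39 (SPAK), a kinase that activates NKCC1 and restrains the KCC carriers, fell by 0.71 ± 0.10, from 16.0 and 17.3 to 10.4 and 10.02 CPM. Txnip, which promotes removal of glucose carriers from the membrane, rose by 0.50 ± 0.06.

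The scratch moved far fewer of these genes. By edgeR's quasi-likelihood test 1 member rose and 2 fell after the scratch, against 1.47% and 1.44% of tested genes and 1.71% and 1.59% of genes with at least 5 CPM. DESeq2 called none, with 6 members at an unadjusted p under 0.05, against 23 by edgeR. No member was at least 2-fold different after the scratch in WT cells, against 0.121% of tested genes higher and 0.737% lower (0.00953% and 0.191% of genes with at least 5 CPM). In KO-labelled cells none was either, against 0.17% higher and 0.0972% lower (0.0572% and 0% of genes with at least 5 CPM). In WT cells 148 members lay within 1.2-fold (93.1%, against 84.5% of tested genes and 90.8% of those with at least 5 CPM), and in KO-labelled cells 155 did (97.5%, against 90.4% and 95.2%). Of the 10 amino acid and glucose carriers left out by name, 6 passed the test for the scratch, all of them higher: Slc3a2, Slc7a1, Slc7a5, Slc7a11, Slc1a4 and Slc6a9. The low number of members that rose after the scratch was thus in part fixed by the choice of members.

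The genes that passed were Slc25a5, which rose, and Slc25a30 and Slc27a1, which fell. Slc25a5 was 1.32-fold higher after the scratch in WT (1.25 to 1.40) and 1.18-fold in KO-labelled cells (1.13 to 1.24). Slc25a30 stood at 0.933 times its unscratched level in WT (0.872 to 0.999) and 0.825 times in KO-labelled cells (0.785 to 0.866). Slc27a1, the fatty acid transport protein FATP1, was at 11.8, 8.05, 11.4 and 10.4 RPKM and fell by 0.32 ± 0.08 (adjusted p = 0.0281). Its ratio was 0.689 in WT (0.625 to 0.759) and 0.915 in KO-labelled cells (0.846 to 0.989), so the WT scratched library alone stood well below the others.

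**Figure D5:**
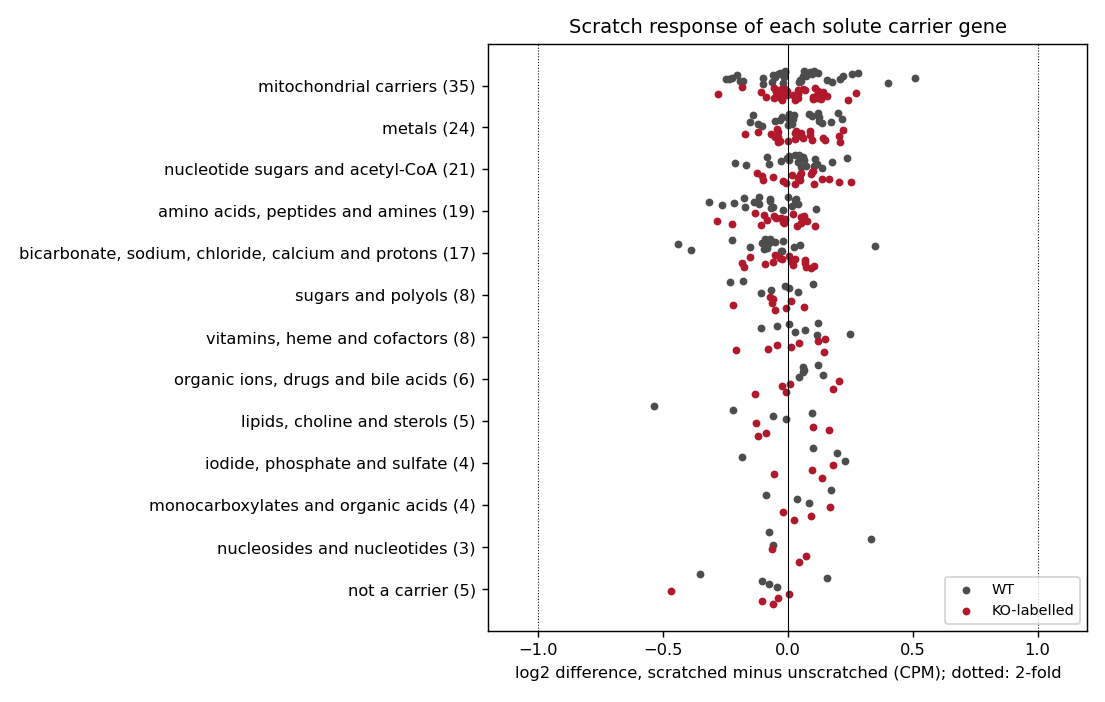
Log2 difference in CPM between scratched and unscratched cells for each of the 159 genes, in rows by class, black for WT and red for KO-labelled cells, with dotted lines at 2-fold. Every point lies inside the dotted lines, and the lowest, Slc27a1 in WT, is at -0.54.

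Median scratch differences were near 0 in the members, 0.00 in WT and 0.01 in KO-labelled cells, against 0.02 and 0.01 over all tested genes. The scratch comparisons share no library with each other, but each shares libraries with both genotype comparisons. The sign matched between genotypes for 108 members (67.9%), against 61.3% of tested genes. In 0 members did the scratch response differ between genotypes by a log2 value of at least 1 with an interval that excluded 0, against 0.891% of tested genes and 0.181% of genes with at least 5 CPM. The largest differences, KO-labelled minus WT, were -0.51 for the pyrimidine nucleotide carrier Slc25a33 (-1.0 to -0.03), -0.45 for Slc52a2 (-0.81 to -0.10), 0.45 for the anion exchanger Slc4a3 (0.22 to 0.69) and 0.41 for Slc27a1 (0.23 to 0.59). Slc25a33 was at 1.75, 2.49, 2.65 and 2.63 RPKM, with the WT unscratched library below the other 3. It reached 5 CPM in the KO-labelled unscratched library alone, so the sign of its difference was in part fixed by the choice of members.

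Few members stood near the level threshold. At least 5 CPM was reached in all 4 libraries by 153 members, and 6 crossed it by plain totals: Slc7a7, Slc43a1, Slc43a2, Slc25a33, Slc29a2 and Slc2a4rg-ps. Just inside it were Slc25a33, with a highest value of 5.01 CPM, and Slc43a1 with 5.28 CPM. Just outside were Slc2a6 with 4.98 CPM and Slc9a7 with 4.94 CPM. Counts behind a member's value ran from 84 to 56290. Exons of 16 members overlap another tested gene, 14 on the opposite strand and 2 on the same strand (Slc10a3 with Ubl4a and Slc5a3 with Mrps6), and the values of these 16 are uncertain because the strand setting of the counting is not given in the sources used here.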

How the data were processed

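RNA-seq libraries of 4 conditions, 1 each, were used. The authors deposited raw counts for 46078 Ensembl genes, totalling 26903429, 27907279, 29533746 and 48333801 in WT unscratched, WT scratched, KO-labelled unscratched and KO-labelled scratched cells. They also deposited RPKM values with gene names, which give the levels between genes. Per the submitters' processing notes, which state no roles, the authors used build mm10, HTSeq 0.11.3, STAR 2.7.9a, edgeR 3.32.1 and Trimmomatic 0.39; the annotation release is not given in the sources used here. Column names give genotype and S for scratched, and the letter N was read as unscratched.

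Counts were scaled with TMM factors (edgeR 4.0.16, R 4.3.3). Folds are CPM ratios with 95% Clopper-Pearson intervals (scipy 1.17.1). A call of at least 2-fold needs a log2 difference of 1 or more with a prior count of 2 and an interval that excludes 1. The additive fit used edgeR's quasi-likelihood test, with 1 residual degree of freedom and a 5.49% biological coefficient of variation; DESeq2 1.42.0 was an alternative. Its spread is estimated from the interaction that the model leaves out. No molecular identifiers are named in the sources used here, so intervals and the floor of 3 counts cover counting error only. The additive fit was tested on simulated data with 2-fold genotype changes. Smaller changes, such as the median fold of 1.23 among members that passed, were not simulated for it. Positions came from GENCODE M21 (the same build). Names were 61 genes: in each class the 3 with the highest mean RPKM and up to 4 with the largest genotype or scratch log2 among those that passed, and every gene past 2-fold or near the 5 CPM threshold; other genes named were chosen after their values were seen. Some members and partners are counted but not reported by name here. Members, classes and lists were chosen with earlier results of these data known.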

Additional observations from a re-analysis of the deposited data

How the results depend on the processing

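Other settings changed some counts of members. With a 1.5-fold threshold, 6 members differed between genotypes unscratched and 3 scratched, in place of 1 and 1. With the authors' RPKM and a pseudocount of 0.1, which understates folds of low genes, 0 members were past 2-fold unscratched. DESeq2 called 11 members for genotype in place of 43 and 0 for the scratch in place of 3. For the scratch, 6 members passed with no low-count filter and 5 with a filter at 5 CPM. Total counts gave 43 genotype and 3 scratch calls, with 26 higher and 17 lower in place of 27 and 16 for genotype. Membership was 153 genes with 5 CPM asked in all 4 libraries and 140 with 10 CPM in at least 1. The 61 named genes in 4 comparisons gave 244 folds, all within their counting intervals under total counts, DESeq2 size factors and RPKM. The 0 counts for the scratch folds and for the difference of responses stayed 0 under the alternatives tried. No library could be left out, since each condition has 1. No paired analysis was possible because each condition has 1 library and the labels carry no replicate numbers. Depth limits the lowest members, with 84 counts for Slc43a2 in WT scratched cells.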
